A study of Mus musculus with 8 samples.

Results

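Matrix metalloproteases (Mmp genes), ADAMTS proteases with their ADAMTS-like relatives (Adamts and Adamtsl genes) and the tissue inhibitors of metalloproteases (Timp genes) were followed in 8 mouse skin RNA-seq libraries. Members were taken by symbol alone, as every listed gene whose symbol starts with Mmp, Adamts or Adamtsl followed by a digit, plus Timp1 to Timp4. This gave 51 of 23432 listed symbols, made up of 23 Mmp, 19 Adamts, 5 Adamtsl and 4 Timp genes. Each of the 51 had at least 1 count in at least 1 library.

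The libraries formed 4 groups of 2. At embryonic stage E16.5, epithelial cells positive for K14-H2BGFP, a histone H2B and green fluorescent protein fusion under the Krt14 promoter, were FACS-isolated out of back skin of control and MOF fl/fl Krt14-Cre (MOF cKO) embryos. In newborns at stage P0.5, total epidermis was peeled off with dispase from control and Kansl1 fl/fl Krt14-Cre (Kansl1 cKO) animals. MOF, listed as Kat8, is the acetyltransferase of histone H4 lysine 16 and works in the MSL and NSL complexes, and KANSL1 is a subunit of NSL. Krt14-Cre acts in basal keratinocytes and their progeny, and dermal and immune cells are outside its lineage. All mice were of mixed C57Bl/6J and CD-1 background, and the labels describe the control genotype only as control. Stage, isolation and deleted gene differ together between the experiments, so E16.5 and P0.5 levels are given side by side without a test.

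These proteases are secreted or membrane-bound zinc enzymes that are made as inactive precursors. Collagenases open fibrillar collagen, gelatinases degrade denatured and basement membrane collagen, stromelysins have broad substrates and activate other precursors, and ADAMTS enzymes trim proteoglycans, procollagen and fibrillin microfibrils. TIMPs bind the active sites of the enzymes and block them. In skin the family is known for wound repair, where keratinocytes at the wound edge make several Mmps, and for remodelling of the basement membrane and the hair follicle sheath.

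Counts on genes ran from 22484018 to 27561688 per E16.5 library and from 9108709 to 19774643 per P0.5 library, and the 51 genes took between 0.0470% and 0.104% of them. Keratinocyte markers (10 of 10 with counts in every library) summed to at least 34634 CPM, counts scaled by edgeR's TMM-adjusted library sizes. The targeted genes were lower in both cKO libraries than in both controls, with log2 fold changes of -0.14 for Kat8 and -0.52 for Kansl1, neither of them called (adjusted p = 0.554 and 0.242, edgeR's quasi-likelihood test), and whole-gene counts do not resolve a deleted exon. P0.5 control replicate 1 stood apart in muscle markers, at 190.0 CPM summed over 5 genes against 2.37 to 3.81 in the other P0.5 libraries. The study's methods describe 2 pairs per comparison and littermate controls, but nothing used here ties a replicate number to a litter, so the p-values measure the spread between these libraries.

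On chromosome 9 of mm10, 10 Mmp genes lie side by side between positions 7272514 and 7699585, and this cluster holds 5 of the 6 Mmp genes that rose in MOF cKO. RefSeq promoters (250 bases before to 50 after the annotated start, GRCm38.p6) were at hand for 36 of the 51 genes. Mmp9, Adamts4, Adamts19 and Adamtsl1, all called in MOF cKO, were among the genes without one and were not searched. The AP-1 recognition letters TGAGTCA, searched on both strands, occur in promoters of 7 of the 36, and all 7 belong to the cluster. Over all RefSeq genes in the table, 5.95% of 27025 had these letters in at least 1 promoter. The 100 bases before the start are shown for the 7 genes, since 5 of them were called up in MOF cKO. They are written 5′ to 3′ on the gene's strand, with the AP-1 letters in capitals (Mmp13 holds the reverse complement).
Mmp13 (chr9:7272414-7272513, plus strand): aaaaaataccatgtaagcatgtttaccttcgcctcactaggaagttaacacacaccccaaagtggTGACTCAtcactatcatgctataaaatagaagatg
Mmp12 (chr9:7347274-7347373, plus strand): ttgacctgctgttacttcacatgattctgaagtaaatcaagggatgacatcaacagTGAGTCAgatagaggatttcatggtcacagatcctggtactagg
Mmp1b (chr9:7388027-7388126, minus strand): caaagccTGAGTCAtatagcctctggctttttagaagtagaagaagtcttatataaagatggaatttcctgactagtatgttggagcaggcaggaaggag
Mmp3 (chr9:7445722-7445821, plus strand): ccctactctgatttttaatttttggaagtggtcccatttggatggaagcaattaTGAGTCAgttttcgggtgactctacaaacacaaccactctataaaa
Mmp1a (chr9:7464041-7464140, plus strand): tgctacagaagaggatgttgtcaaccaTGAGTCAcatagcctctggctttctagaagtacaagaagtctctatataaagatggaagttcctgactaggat
Mmp10 (chr9:7502242-7502341, plus strand): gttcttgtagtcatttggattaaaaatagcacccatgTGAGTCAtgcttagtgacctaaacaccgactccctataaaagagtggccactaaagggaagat
Mmp7 (chr9:7691990-7692089, plus strand): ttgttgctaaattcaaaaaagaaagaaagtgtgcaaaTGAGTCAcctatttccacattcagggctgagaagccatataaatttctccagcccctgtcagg

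In these sequences the letters begin between 35 and 93 bases before the start, nearest in Mmp13 and farthest in Mmp1b. Mmp12 and Mmp7 each have a pair of RefSeq starts, and the letters are at only 1 of them. The cluster genes Mmp8, Mmp20 and Mmp27 have no such letters in the window. A match of letters is a description of the sequence, and no binding was measured.

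Expression of the family was uneven. Levels between genes are compared as TMM-scaled CPM per kilobase of exon. Mmp14, the membrane-type enzyme that activates pro-Mmp2, had the highest mean over the groups (29.7 per kb), followed by the matrix-bound inhibitor Timp3 (15.9), the versican and aggrecan protease Adamts1 (15.3) and the gelatinase Mmp2 (9.26). The order of Timp3 and Adamts1 changed between groups, at 11.8 and 22.1 per kb in E16.5 control and 25.1 and 17.3 in MOF cKO. In E16.5 control the order was Mmp14 at 34.1 ± 7.96 per kb, Adamts1 at 22.1 ± 2.05, the procollagen N-proteinase Adamts14 at 18.5 ± 1.45, and Adamts17, an ADAMTS enzyme of few known substrates, at 14.4 ± 0.930 (SD, n = 2). In MOF cKO the gelatinase Mmp9 was at 34.6 ± 6.94 per kb and Mmp14 at 33.8 ± 7.47 (SD, n = 2), a gap smaller than either spread. Mmp9 had ranked 16 of 51 in E16.5 control, at 0.663 per kb, and it ranked 29 and 31 in the P0.5 groups.

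At the other end, 13 members were too low to be tested in either comparison. Among them Mmp7 (matrilysin) had 1 count in all, Mmp21 had 3, Timp4 had 7, and the collagenases Mmp8 and Mmp1a had 9 each. The remaining 8 were Adamts8, Adamts13, Adamts16, Adamtsl2, Adamtsl3, Mmp20, Mmp25 and Mmp27, with totals between 15 and 41 counts over the 8 libraries.

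**Figure D1:**
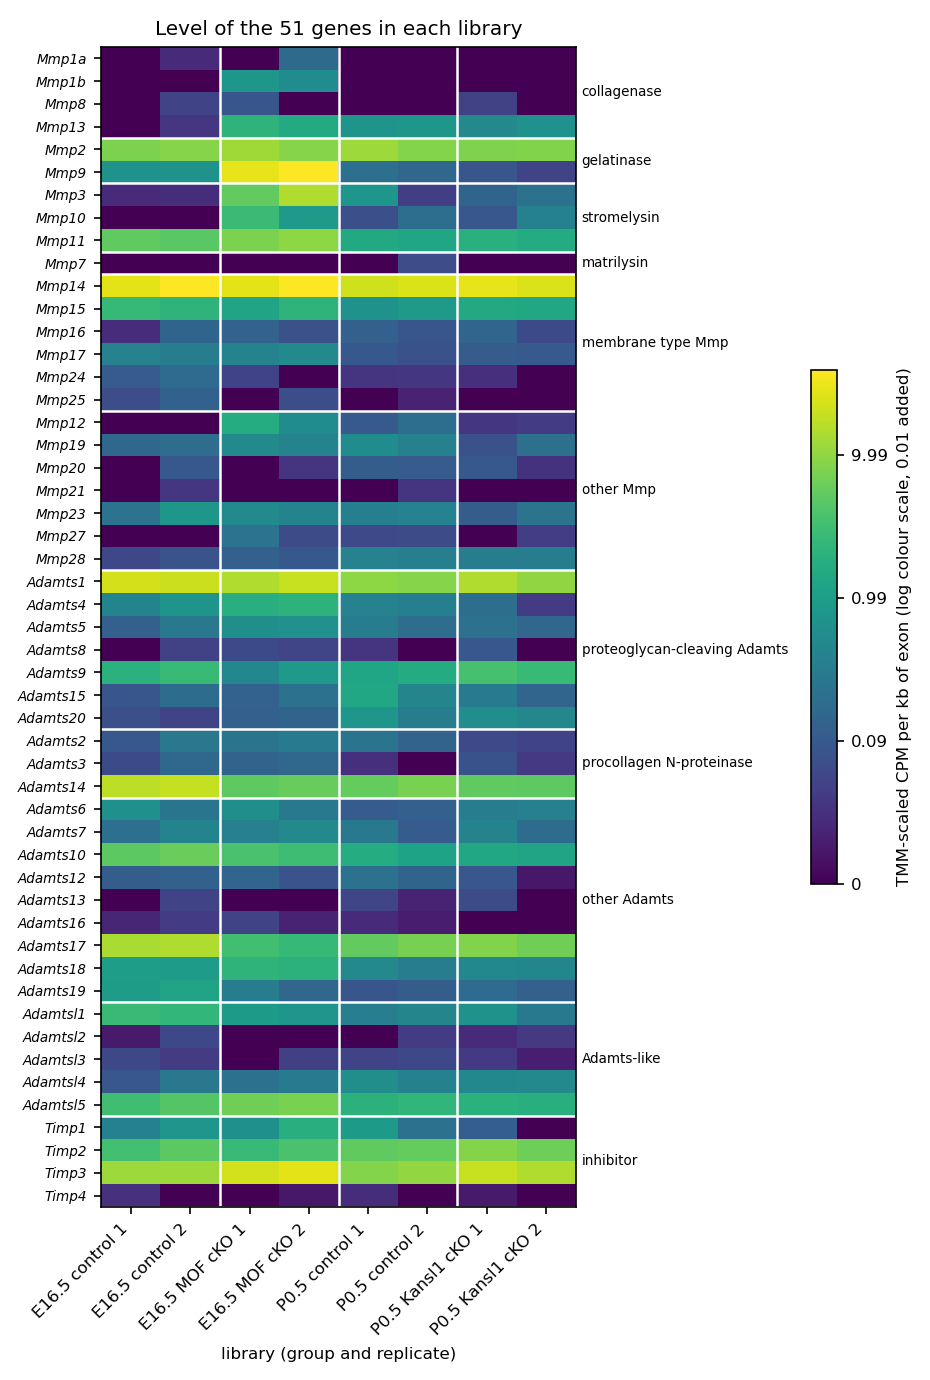
Level of each of the 51 genes (rows, grouped by role) in each of the 8 libraries (columns), as TMM-scaled CPM per kb of exon on a log colour scale with 0.01 added. Mmp14 is bright in every library, Mmp9 is bright in the MOF cKO libraries alone, and the cluster genes Mmp3, Mmp10, Mmp12 and Mmp13 turn from dark to green in them.

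To ask how loss of MOF bears on the family, the E16.5 groups were compared with edgeR's quasi-likelihood test over all 13956 genes that passed its filter on low counts. A gene was called at a Benjamini-Hochberg adjusted p of at most 0.01 and a fold change over 1.5. Of the 51 members, 37 passed the filter. In MOF cKO 10 of the 37 rose (27.0%, where 10.0% of all tested genes were called up) and 5 fell (13.5%, where 9.59% were called down, for 19.6% either way). The genes that rose were Mmp9, Mmp3, Mmp10, Mmp12, Mmp13, Mmp1b, Timp3, Adamts4, Adamts18 and Adamtsl5, and those that fell were Adamts9, Adamts14, Adamts17, Adamts19 and Adamtsl1. Of the 10 that rose 6 were Mmp genes, and the 5 that fell were all Adamts or Adamtsl genes. Mmp3, Mmp10, Mmp12, Mmp13 and Mmp1b passed the filter only through the MOF cKO libraries and so had to differ. They are 5 of the 10 that rose, so the share of 27.0% and its excess over 10.0% rest partly on them. The median log2 fold change of the 37 was 0.43, against -0.02 over all tested genes, and it is the same with the 3 genes of 0 control counts at their lower bounds. Both MOF cKO libraries lay above both controls in 16 members (43.2%, 34.9% of all tested genes) and below them in 9 (24.3%, 37.7% of all). The 5 genes that passed only through the MOF cKO libraries are among the 16, so the share of 43.2% and its excess rest partly on them. They enter the median as well. Mmp24, which passed only through the control libraries, is among the 9.

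Mmp9, the gelatinase that cleaves denatured and basement membrane collagen, rose most among the members that were detected well in both genotypes. It lies on chromosome 2 of mm10 (164940780 to 164955850, plus strand). Its counts were 72 and 65 in the controls and 2093 and 3301 in MOF cKO, or 2.35 and 2.35 CPM against 105 and 140 CPM. The groups did not overlap, and the rise was 52.1-fold (log2 fold change 5.70, SE 0.199, adjusted p = 4.2e-05, edgeR's quasi-likelihood test). At P0.5 Mmp9 had between 2 and 8 counts in every library, control or Kansl1 cKO. Mmp2, the other gelatinase, had 25.7 and 29.9 CPM in control and 41.1 and 30.2 CPM in MOF cKO, and was not called (log2 fold change 0.36, 95% interval -0.07 to 0.78).

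The cluster on chromosome 9 was nearly silent in E16.5 control cells and detected in both MOF cKO libraries. Its 10 genes span 427.1 kb, and the 9 coding genes annotated inside are all members, while Mmp1a is annotated as a polymorphic pseudogene. Summed over the cluster, the controls held 1 and 15 counts and the MOF cKO libraries 686 and 902, which is 0.0326 and 0.542 CPM against 34.4 and 38.2 CPM. At P0.5 the sum was 4.58 and 4.40 CPM in control and 2.28 and 3.16 CPM in Kansl1 cKO.

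Mmp3, stromelysin 1, which activates other pro-Mmps, had the most counts of the cluster over both MOF cKO libraries together, while Mmp12 had more in replicate 1. Mmp3 went from 1 and 1 counts to 194 and 639 in MOF cKO, a ratio of 558 with an exact counting interval of 154 to 4618 (adjusted p = 0.000539, edgeR's quasi-likelihood test). The interval covers counting error only and leaves out the spread between libraries. Mmp3, Mmp12 and Mmp10 passed the filter only through the MOF cKO libraries, so a rise was built into their tests. Mmp12, the elastin-degrading metalloelastase known from macrophages, went from 0 counts in both controls to 241 and 96 in MOF cKO, at least 78.4-fold higher when the controls are set to a floor of 3 counts per library. Mmp10, stromelysin 2, went from 0 and 0 counts to 96 and 36 in MOF cKO, at least 30.8-fold higher. These genes differed in which MOF cKO library was higher: Mmp3 in replicate 2, Mmp12 and Mmp10 in replicate 1. The MOF cKO mean of Mmp3 was 18.4 CPM and 9.74 CPM without replicate 2, that of Mmp12 was 8.08 CPM and 4.07 CPM without replicate 1, and that of Mmp10 was 3.17 CPM and 1.52 CPM without replicate 1. Without replicate 2, Mmp12 was at 12.1 CPM and Mmp10 at 4.82 CPM. All 3 calls held without either control library.

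Mmp13, an interstitial collagenase, went from 0 and 2 counts to 118 and 99 in MOF cKO, a ratio of 145 with a counting interval of 39.8 to 1209 (adjusted p = 0.00127, edgeR's quasi-likelihood test). Both of its control counts were in replicate 2, so its control mean of 0.0361 CPM becomes 0.0722 CPM without control replicate 1 and 0 without replicate 2. Mmp1b, a rodent collagenase-like gene, had 0 and 0 against 23 and 19 counts, at least 9.50-fold higher. The adjusted p was 0.00905 for Mmp1b, 0.00146 for Mmp12 and 0.00395 for Mmp10 in edgeR's test. Mmp13 and these genes passed the filter only through the MOF cKO libraries, so a rise was built into their tests. The counting interval of Mmp13 likewise leaves out the spread between libraries. Mmp1b lost its call when any 1 library was left out (adjusted p = 0.0387, 0.0318, 0.0398 and 0.0226 without control replicate 1 or 2 and without MOF cKO replicate 1 or 2, edgeR's test), and Mmp10 did so without MOF cKO replicate 1 (adjusted p = 0.0139). Exons of Mmp1b and Mmp12 overlap by 157 bp on opposite strands and Mmp1a is a near copy of Mmp1b, so without a stated strand setting of the counting some of their reads may be shared.

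The other 4 cluster genes stayed below the filter at E16.5. Mmp27 went from 0 and 0 counts to 10 and 3 in MOF cKO, at least 3.05-fold higher. Mmp1a had 0 and 1 against 0 and 8 counts, a ratio of 10.7 with a counting interval of 1.44 to 476. Mmp8 (neutrophil collagenase) had at most 4 counts and Mmp20 (enamelysin of the tooth) at most 8 in any E16.5 library. Mmp7 had 0 counts in all 4 libraries, although its promoter holds the AP-1 letters shown above. The letters were present in all 5 cluster genes that were called, in Mmp1a and in Mmp7, and absent from the windows of Mmp27, Mmp8 and Mmp20. Whether they bear on the levels was not tested.

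**Figure D2:**
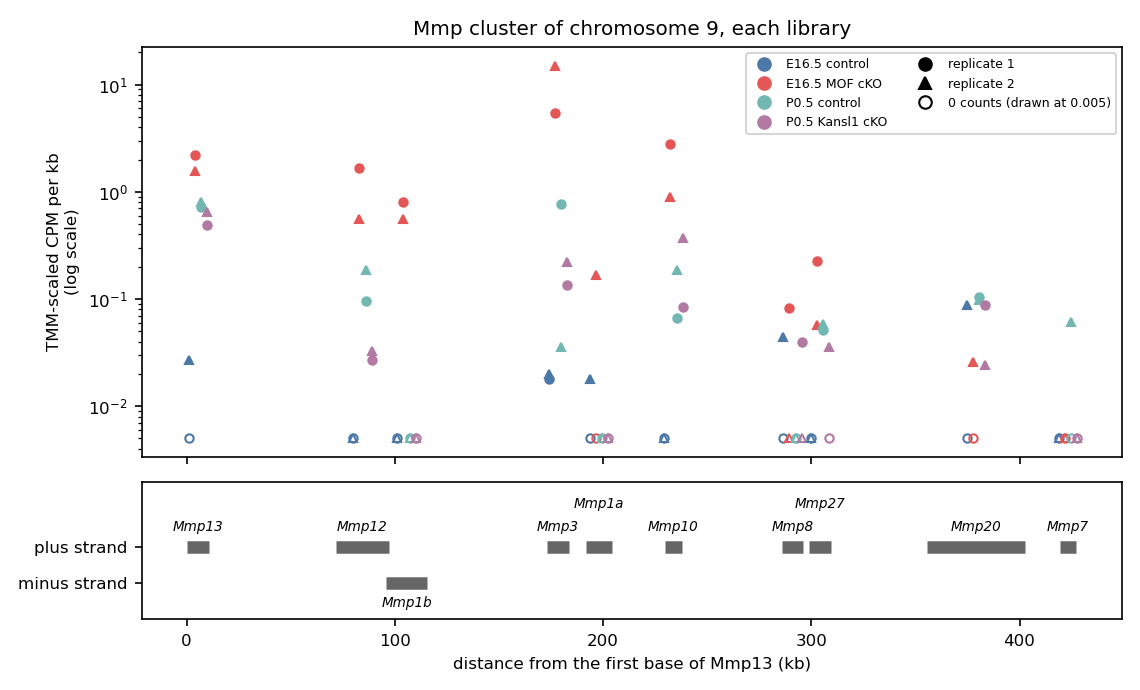
Upper panel, TMM-scaled CPM per kb of exon (log scale) of the 10 cluster genes in each library, at the midpoint of each gene with groups set slightly apart; lower panel, gene extents by strand, with distance in kb from the first base of Mmp13. MOF cKO (red) is above E16.5 control (blue) at Mmp13, Mmp12, Mmp1b, Mmp3, Mmp10 and Mmp27, and Mmp7 at the right end is without counts in all E16.5 libraries.

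Timp3, the inhibitor that stays in the matrix and also blocks Adam17 and aggrecanases, rose as well. It had 95.5 and 97.5 CPM in control and 182 and 227 CPM in MOF cKO, a 2.12-fold rise (log2 fold change 1.08, SE 0.130, adjusted p = 0.00112, edgeR's quasi-likelihood test). Exons of Timp3 overlap those of Syn3 by 1733 bp on the opposite strand. Of the other inhibitors, Timp2, which also takes part in pro-Mmp2 activation, had 12.9 and 19.5 CPM in control and 10.3 and 14.1 CPM in MOF cKO and was not called (log2 fold change -0.41, 95% interval -1.02 to 0.20). Timp1, a soluble inhibitor, had 10 and 19 control counts and 11 and 38 cKO counts, and its groups overlapped (adjusted p = 0.333 in edgeR's test). Timp4 had at most 4 counts in a library.

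The remaining 3 members that rose were Adamts4, Adamts18 and Adamtsl5. Adamts4, an aggrecanase, went from 1.96 and 3.43 CPM to 8.53 and 10.3 CPM (log2 fold change 1.81, SE 0.360, adjusted p = 0.00743, edgeR's quasi-likelihood test). Adamts18, an ADAMTS enzyme of epithelial tissues, went from 10.3 and 9.64 CPM to 21.9 and 20.8 CPM (log2 fold change 1.10, adjusted p = 0.00286 in edgeR's test). Adamtsl5, a fibrillin-binding relative that lacks the protease domain, went from 14.7 and 20.4 CPM to 31.5 and 35.3 CPM (log2 fold change 0.93, adjusted p = 0.0084 in edgeR's test). In all 3 genes both MOF cKO libraries were above both controls. Adamts18 kept its call in each of 12 alternative analyses. Adamts4 lost it without control replicate 1 (adjusted p = 0.0130) and without MOF cKO replicate 2 (0.0139), and Adamtsl5 without control replicate 1 (0.0204), MOF cKO replicate 1 (0.0103) and MOF cKO replicate 2 (0.0196), all in edgeR's test. With library size alone in place of TMM factors, which moved the median of all genes to -0.32, neither was called (adjusted p = 0.0138 and 0.0337, edgeR's test).

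The 5 members that fell ranked between 3 and 14 of the 51 by level per kb in control cells. Adamts14, which removes the N-propeptide of fibrillar procollagens, went from 90.6 and 101 CPM to 26.6 and 29.9 CPM, a 3.39-fold fall (log2 fold change -1.76, SE 0.129, adjusted p = 0.00032, edgeR's quasi-likelihood test). Adamts17 fell from 107 and 117 CPM to 25.3 and 20.2 CPM. Adamts9, a versican-cleaving enzyme, went from 30.0 and 40.6 CPM to 6.98 and 13.1 CPM (log2 fold change -1.81, SE 0.300, adjusted p = 0.00369, edgeR's test). Adamts19 went from 13.1 and 17.9 CPM to 4.52 and 2.03 CPM (log2 fold change -2.25, adjusted p = 0.00427, edgeR's test), with a log2 fold change of -2.93 when MOF cKO replicate 1 was left out. Adamtsl1 (punctin), a secreted matrix protein without a protease domain, went from 34.3 and 30.8 CPM to 11.4 and 9.78 CPM (log2 fold change -1.62, adjusted p = 0.000743, edgeR's test). In none of the 5 did the genotypes overlap, and each call was kept in all 12 alternatives. Adamts9 shares 1381 bp of exon with A730049H05Rik, which the files do not list.

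**Figure D3:**
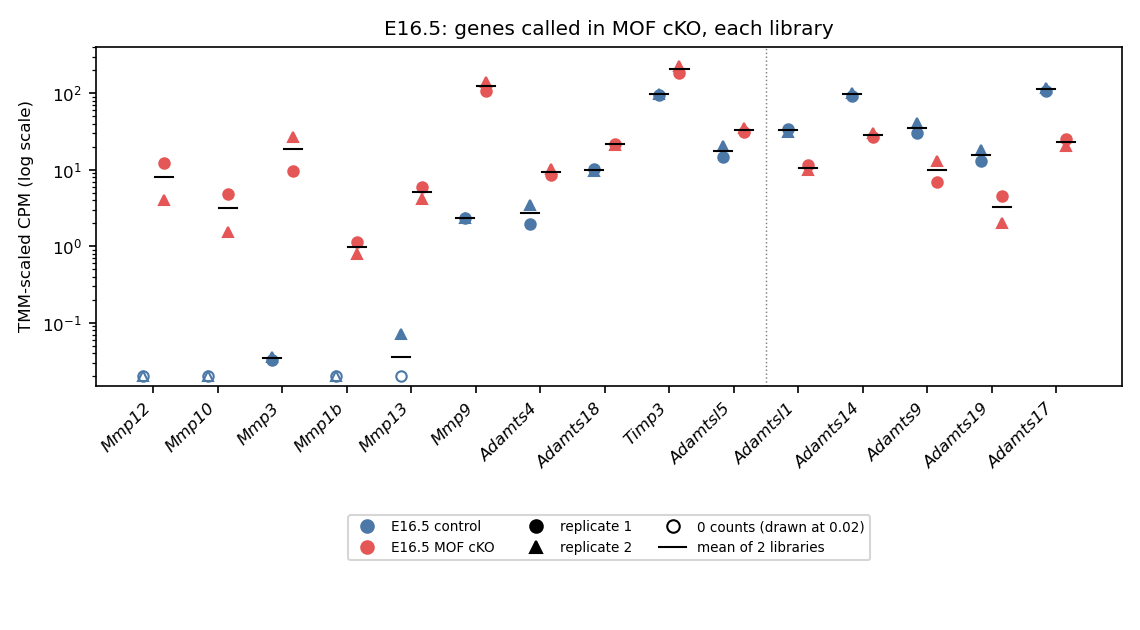
TMM-scaled CPM (log scale) of the 15 genes called in MOF cKO, with 1 point per library (circle replicate 1, triangle replicate 2), the mean of 2 libraries as a line, and 0 counts as open symbols drawn at 0.02. Left of the dotted line are the 10 genes that rose, in which every red point lies above the blue ones, and right of it the 5 that fell, where the order is turned round.

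Added up by family per kb of exon, Mmp levels went from 45.7 and 58.3 in the E16.5 control libraries to 94.2 and 120 in MOF cKO, Timp levels from 15.4 and 17.7 to 25.6 and 33.3, and Adamts levels from 65.3 and 68.6 to 33.9 and 38.9. These sums are dominated by Mmp14, Mmp9, Timp3, Adamts1, Adamts14 and Adamts17 and are given without a test. Within each family, the groups by role did not move as one.

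Of the tested membrane-type Mmps, 0 of 5 were called, with log2 fold changes between -2.65 and 0.36. The lowest was Mmp24, which passed the filter only through the control libraries and shares 637 bp of exon with BC029722. Mmp14, the most abundant member in control cells, had 170 and 237 CPM in control and 170 and 233 CPM in MOF cKO (log2 fold change -0.01, 95% interval -0.48 to 0.45). Of the proteoglycan-cleaving ADAMTS genes, 1 of 6 rose (Adamts4) and 1 fell (Adamts9). Adamts1 had 125 and 109 CPM in control and 77.8 and 106 CPM in MOF cKO and was not called (log2 fold change -0.35, 95% interval -0.73 to 0.03). Of the procollagen N-proteinases, Adamts14 fell while Adamts2 and Adamts3 were not called. Among the other ADAMTS genes, 1 of 7 rose and 2 fell, and of the ADAMTS-like genes, 1 of 3 rose and 1 fell. The remaining Mmp genes with other roles, Mmp19 and Mmp23, were not called (log2 fold changes 1.47 and -0.17).

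Some members missed the threshold narrowly. Mmp11 (stromelysin 3) had 14.8 and 13.2 CPM in control and 21.2 and 27.1 CPM in MOF cKO (log2 fold change 0.79, adjusted p = 0.0139, edgeR's test). The aggrecanase Adamts5 had 1.27 and 2.89 against 6.63 and 7.07 CPM (log2 fold change 1.72, adjusted p = 0.0205, edgeR's test), and Adamts10, which binds fibrillin, had 40.2 and 49.8 against 30.4 and 24.7 CPM (log2 fold change -0.71, adjusted p = 0.0143, edgeR's quasi-likelihood test). DESeq2 called these 3 in addition, for 12 up and 6 down, where it called 13.0% of all tested genes up and 12.4% down. In each of the 3 genes the genotypes did not overlap. Exons of Mmp11 overlap those of Chchd10 by 155 bp on the opposite strand.

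Markers of some other cell types were also higher in MOF cKO at E16.5, most clearly those of macrophages. The 14 macrophage markers summed to 22.7 and 47.3 CPM in control and 114 and 146 CPM in MOF cKO, and 8 of the 14 were called up (median log2 fold change 3.90). Of 9 neutrophil markers, Ngp and Camp had 0 counts in all 4 libraries and 1 of 4 tested markers was called up, S100a9, which stressed keratinocytes also make. Their sum was 1.24 and 1.41 CPM against 13.4 and 14.0 CPM. The 7 mast cell markers summed to 24.1 and 19.9 against 37.1 and 82.7 CPM and the 9 fibroblast markers to 947 and 1615 against 1631 and 2246 CPM, with 1 of 5 and 0 of 9 tested markers called. The fibroblast marker Dcn was lower (495 and 509 against 411 and 404 CPM), while the other fibroblast markers had higher means. Melanocyte sums (14.4 and 42.5 against 16.4 and 64.2 CPM) and Schwann cell sums (4.79 and 17.1 against 7.88 and 27.9 CPM) overlapped, with 0 markers called. The 6 endothelial markers summed to 6.49 and 7.47 against 11.8 and 23.7 CPM, with 1 of 6 called up and a median log2 fold change of 1.23. The 5 muscle markers summed to 0.978 and 1.34 CPM in control and 2.26 and 13.2 CPM in MOF cKO. Of the 3 muscle markers tested 0 were called, with a median log2 fold change of 2.53. The epidermal differentiation keratins Krt1 and Krt10 were called up as well (log2 fold changes 1.67 and 1.12). The part of these cells in the Mmp values was not tested. The P0.5 libraries held more macrophage marker RNA than any E16.5 library, with 219 and 253 CPM in control and 326 and 351 CPM in Kansl1 cKO. There Mmp9 was between 0.158 and 0.687 CPM and Mmp12 between 0.194 and 1.36 CPM. Stage and isolation also differ between these libraries, and the source of the Mmp RNA was not tested. In bulk RNA a change in the number of cells of a type and a change of RNA per cell cannot be told apart.

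**Figure D4:**
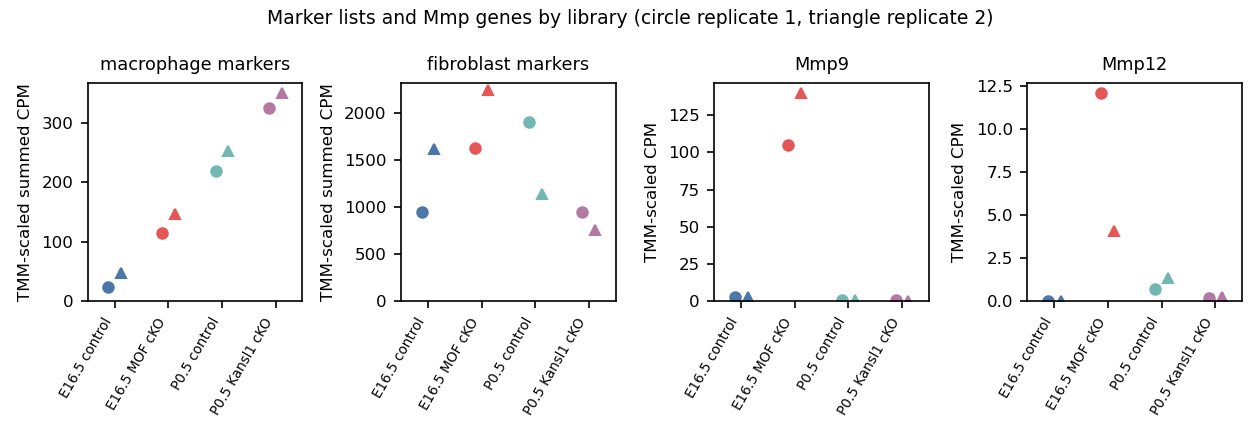
TMM-scaled CPM of 14 macrophage markers (sum), 9 fibroblast markers (sum), Mmp9 and Mmp12 in each library, by group on linear axes that start at 0. The macrophage sum is highest at P0.5, and Mmp9 and Mmp12 are highest in the E16.5 MOF cKO libraries. Stage and isolation differ between E16.5 and P0.5.

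Other genes that act with these proteases were examined from a list of 36 activators, inhibitors and partners, of which 30 were tested. This list and the substrate list below were chosen with earlier results of these data known, so their shares are not independent evidence. In MOF cKO 10 of them rose and 3 fell, and their median log2 fold change was 0.61 (10.0% of all tested genes were called up and 9.59% down, with a median of -0.02). At P0.5, edgeR called 0 of 29 tested, as it called 0 of all 13031 genes tested there. DESeq2 called 1 of them up and 1 down, where it called 0.269% of all tested genes up and 0.506% down. The plasminogen activation system, which starts cascades of Mmp activation, held several: urokinase Plau (log2 fold change 1.22), its receptor Plaur (2.71, from 2.42 to 15.9 CPM) and the inhibitors Serpinb2 (1.36) and Serpine2 (3.18, from 27.2 to 246.9 CPM) rose. The cell surface Mmp inducer Bsg rose by 0.70, Cd44, a docking site for Mmp9, by 0.65, and the sheddase Adam8 by 2.12. Matriptase (St14), the procollagen C-proteinase Bmp1 and its enhancer Pcolce were called up too, and Tll1 and Spock2 were among those called down. The membrane-anchored inhibitor Reck was not called (3.98 against 3.48 CPM).

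Of 22 known substrates, 18 were tested at E16.5, and 2 rose and 1 fell, with a median of 0.32, where 19.6% of all tested genes were called either way. Tenascin C (Tnc), a matrix protein of wounds, went from 99.3 ± 1.11 to 340 ± 33.8 CPM (SD, n = 2; log2 fold change 1.78). Osteopontin (Spp1) had 0 counts in both controls and a mean of 2.43 CPM in MOF cKO, and biglycan (Bgn) fell (-1.37). The fibrillar collagens Col1a1, Col1a2 and Col3a1, also on the fibroblast marker list, were not called, with log2 fold changes between 0.74 and 1.11.

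The P0.5 groups were compared in the same way to ask what loss of KANSL1 does to the family. Of the 51 members 29 passed the filter, and edgeR's quasi-likelihood test called 0 of them, as it called 0 of the 13031 genes tested (0%). At an unadjusted p under 0.05, 7 of the 29 differed (24.1%, against 15.7% of all tested genes). Of these, 4 were higher (7.43% of all tested genes) and 3 lower (8.26% of all) in Kansl1 cKO. Both Kansl1 cKO libraries lay above both controls in 9 members (31.0%, 26.0% of all tested genes) and below in 11 (37.9%, 22.7% of all). Adamts2, Mmp19 and Mmp23 passed the filter only through the control libraries, and they are among the 11. Adamts2 and Mmp19 are also among the 3 that were lower at an unadjusted p under 0.05. A lower level was thus favoured in these genes, and the shares of 37.9% and 24.1% rest partly on them. The median log2 fold change of the 29 was 0.0015, against 0.01 over all tested genes. DESeq2 called 0 of the 17 members to which it gave an adjusted p, where it called 0.269% of all tested genes up and 0.506% down.

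The 4 members with an unadjusted p under 0.05 that were higher in Kansl1 cKO were Adamts9, Timp3, Adamts6 and Mmp15. Adamts9 had 19.7 and 24.9 CPM in control and 54.2 and 40.4 CPM in Kansl1 cKO (log2 fold change 1.08, SE 0.216, unadjusted p = 0.00168 and adjusted p = 0.180 in edgeR's quasi-likelihood test). Timp3 had 68.6 and 83.1 CPM in control and 163 and 119 CPM in Kansl1 cKO (log2 fold change 0.89, SE 0.208, unadjusted p = 0.0038 and adjusted p = 0.197 in edgeR's test). In both genes the groups did not overlap, and both were called when Kansl1 cKO replicate 2 was left out (adjusted p = 0.000439 for Adamts9 and 0.00102 for Timp3, edgeR's test). Adamts6, a close relative of Adamts10, had 0.802 and 0.905 against 2.52 and 2.77 CPM (log2 fold change 1.60, adjusted p = 0.212, edgeR's test). The membrane-type Mmp15 had 3.67 and 4.78 against 8.04 and 7.43 CPM (log2 fold change 0.86, adjusted p = 0.250, edgeR's test).

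The 3 that were lower were Adamts15, Adamts2 and Mmp19. Adamts15, a versican-cleaving enzyme, had 14.2 and 4.33 CPM in control and 3.05 and 1.42 CPM in Kansl1 cKO (log2 fold change -1.98, SE 0.627, unadjusted p = 0.0166 and adjusted p = 0.238 in edgeR's quasi-likelihood test). Its value in control replicate 1, the library rich in muscle markers, was above that of every other P0.5 library, and it was called when Kansl1 cKO replicate 1 was left out (log2 fold change -2.70, adjusted p = 0.00117, edgeR's test). Without control replicate 1 its log2 fold change was -0.91 (adjusted p = 0.517, edgeR's test), and without control replicate 2 it was -2.64. The procollagen N-proteinase Adamts2 went from 19 and 19 counts to 10 and 5 in Kansl1 cKO, or 2.18 and 1.23 against 0.484 and 0.395 CPM (log2 fold change -1.87, adjusted p = 0.227, edgeR's test). Mmp19, which cleaves basement membrane proteins, had 17 and 20 against 5 and 9 counts (log2 fold change -1.82, adjusted p = 0.263, edgeR's test), with log2 fold changes of -1.19 without Kansl1 cKO replicate 1 and -2.68 without Kansl1 cKO replicate 2. Adamts2 and Mmp19 passed the filter only through the control libraries, as did Mmp23, and Mmp19 shares 789 bp of exon with Tmem198b on the opposite strand.

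No marker list had a called gene at P0.5, but summed levels differed between libraries. The 9 fibroblast markers summed to 1901 and 1135 CPM in control and 946 and 754 CPM in Kansl1 cKO, a median log2 difference of -1.76, and the muscle markers stood out in control replicate 1 alone. The median of 17 tested substrates was -0.79 and 0 were called by edgeR, while DESeq2 called 5 lower (Fbn1, Col1a1, Col1a2, Col3a1 and Nid1). Melanocyte markers summed to 452 and 494 CPM in control and 948 and 1084 CPM in Kansl1 cKO, and the macrophage sums given above did not overlap either, with 0 of 5 and 0 of 14 markers called. Their part in the values of Adamts2, Adamts15, Adamts9 and Timp3 was not tested.

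The most abundant members at P0.5 were not called. Mmp14 had 129 and 147 CPM in control and 176 and 153 CPM in Kansl1 cKO (log2 fold change 0.25, 95% interval -0.15 to 0.66). Mmp2 had 39.2 and 28.5 against 27.0 and 28.1 CPM, and Adamts1 had 51.8 and 47.1 against 79.5 and 53.5 CPM. Adamts17 had 41.9 and 56.9 against 64.8 and 51.5 CPM, with overlapping groups, and Adamts14 had 29.1 and 38.7 against 27.3 and 26.6 CPM. Timp2 had 20.4 and 21.7 against 33.3 and 24.6 CPM (log2 fold change 0.46, 95% interval -0.02 to 0.95). Mmp13 was the only cluster gene that passed the filter, with 1.95 and 2.13 against 1.31 and 1.74 CPM.

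**Figure D5:**
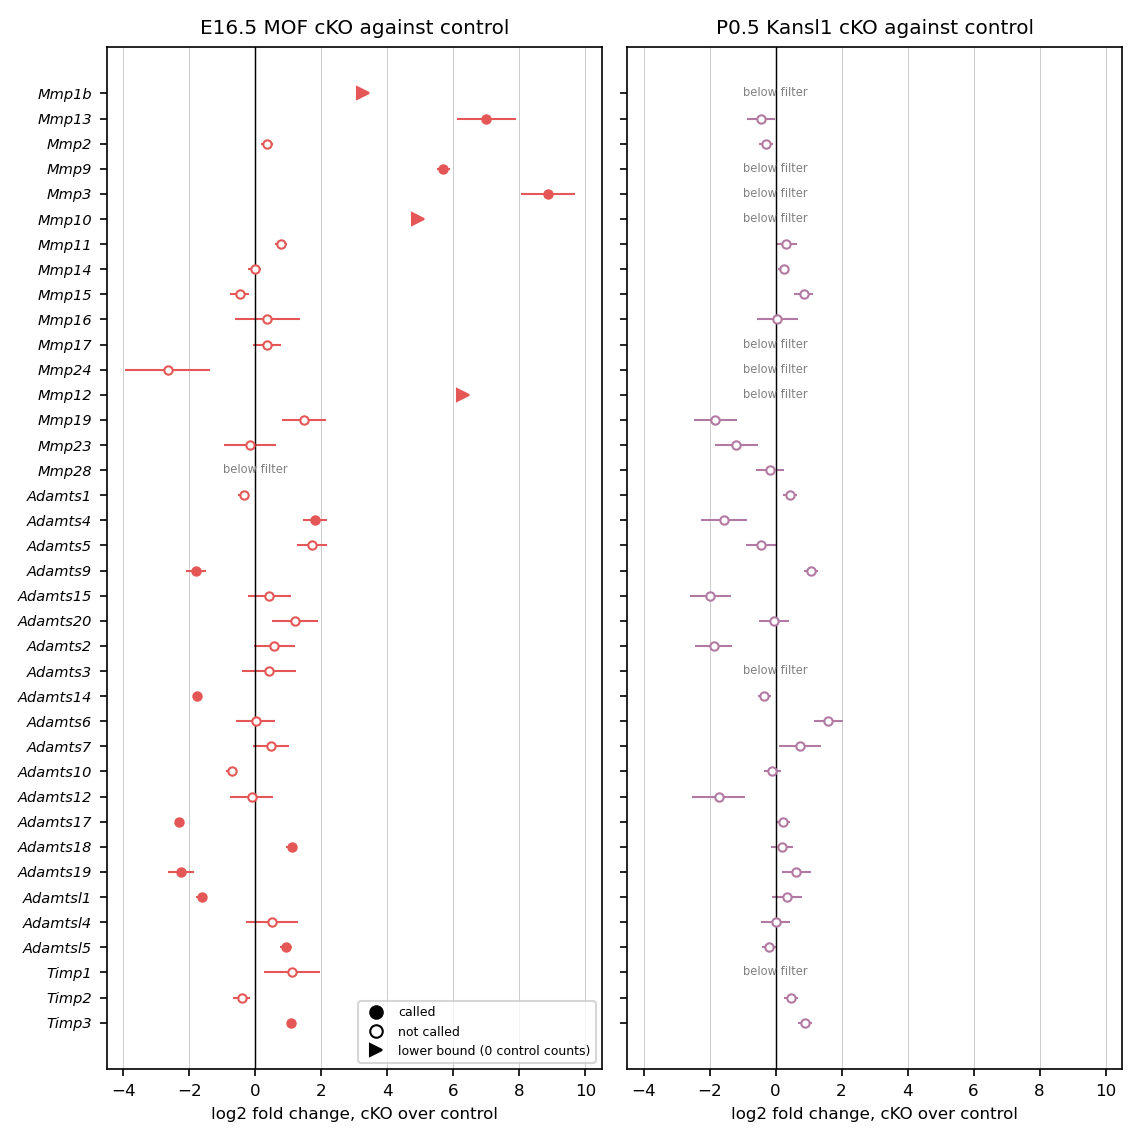
Log2 fold change of cKO over control (point) with its standard error (bar) for the 38 members tested in either comparison, E16.5 MOF cKO on the left and P0.5 Kansl1 cKO on the right; filled symbols were called, open symbols were not, and arrowheads are lower bounds against 0 control counts. On the left 10 filled symbols lie right of 0 and 5 left of it, and on the right none is filled.

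A call in one comparison and none in the other does not show that the changes differ, so the difference of the log2 fold changes was tested in a fit over all 8 libraries. Of 38 members tested there, 7 differed (2.92% of all 14565 tested genes did), and DESeq2 called 11 (10.3% of all). With the replicate number as a block none of the 7 was called, with adjusted p between 0.0106 (Mmp9) and 0.0312 (Adamts14) in edgeR's test. The MOF change was higher in Mmp9, Mmp12, Mmp13 and Mmp3 (4 members, 1.76% of all tested genes in that direction). Of these, Mmp12, Mmp13 and Mmp3 passed the E16.5 filter only through the MOF cKO libraries, so their rise was built in. Mmp9, Mmp12 and Mmp3 were below the filter at P0.5, so they had no tested Kansl1 change of their own. The count of 7 includes all these genes. The Kansl1 change was higher in Adamts17, Adamts9 and Adamts14 (3 members, 1.17% of all). Adamts9 stood on opposite sides of 0, at -1.81 in MOF cKO and 1.08 in Kansl1 cKO, a difference of -2.92 (SE 0.425, adjusted p = 0.00523, edgeR's quasi-likelihood test). Timp3 was higher in both, at 1.08 and 0.89, and the difference of 0.16 had an SE of 0.261 (adjusted p = 0.728, edgeR's test). Mmp10, Adamts4, Adamts18, Adamts19, Adamtsl1 and Adamtsl5, called at E16.5, did not pass in the test of the difference, and Mmp1b, with 0 counts in every P0.5 library, gave no usable difference. Stage and isolation differ along with the deleted gene in this contrast, and their parts cannot be told apart.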

How the data were processed

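PolyA RNA was sequenced as paired-end reads from directional libraries. The authors used the mm10 build and deposited 1 table of HTSeq raw counts per gene symbol for each sample. The labels' processing notes name TopHat2 and the study's methods HISAT2, and the strand setting of the counting is not given in the sources used here. Rows naming no gene (21.1% to 26.0% of a library) were left out. Counts were analysed with edgeR 4.0.16 in R 4.3.3 (filterByExpr with a minimum count of 10, TMM, quasi-likelihood test, Benjamini-Hochberg adjustment), each comparison fitted alone over all genes. Calls needed an adjusted p of at most 0.01 with a fold change over 1.5. A contrast over all 8 libraries tested the difference of the comparisons. DESeq2 1.42.0 was run beside it, and the edgeR steps were tested on simulated counts. Exon lengths and coordinates came from GENCODE M21 on mm10, which holds 98.4% of the listed symbols and all 51 members. Fold changes against 0 counts used a floor of 3 counts per library, and ratios with 1 to 3 control counts carry an exact 95% counting interval; both cover counting error only. Replicates were compared before averaging, and none were duplicates. Samples were grouped by their titles.

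Full values are given for members called in either comparison, the 12 highest by level per kb, the 4 Timp genes and, at P0.5, members at an unadjusted p under 0.05; a few others are named for their place in the cluster or close to the threshold. The members and all gene lists were chosen with earlier results of these data known. The same replicate numbers correlated at 0.27 between the E16.5 groups and at -0.30 between the P0.5 groups, over genes. Values of some genes beside the members are not reported here.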

Additional observations from a re-analysis of the deposited data

Results flagged for a closer look

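The MOF and Kansl1 changes of 7 members differed in the test of the difference over all 8 libraries (edgeR's quasi-likelihood test, Benjamini-Hochberg adjustment). Differences are log2, MOF minus Kansl1. Mmp12, Mmp13 and Mmp3 passed the E16.5 filter only through the MOF cKO libraries, so a higher MOF change was in part built into their tests. Mmp9, Mmp12 and Mmp3 were below the filter of the Kansl1 comparison at P0.5. For Mmp9 the difference was 6.94 (SE 0.595, adjusted p = 0.000687, edgeR), and for Adamts17 it was -2.56 (SE 0.280, adjusted p = 0.00208, edgeR), and both were kept whichever of the 8 libraries was left out. With the replicate number as a block none of the 7 was kept (adjusted p = 0.0106 for Mmp9 and 0.0263 for Adamts17, edgeR). For Mmp12 the fitted difference was 12.5 (adjusted p = 0.00361, edgeR), a value that depends on the prior count because the E16.5 controls had 0 counts, and it missed the threshold without P0.5 control replicate 2 (adjusted p = 0.0103).

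For Mmp13 the difference was 7.35 (SE 1.01, adjusted p = 0.00387, edgeR), and it was not called without E16.5 control replicate 1 (adjusted p = 0.0104), MOF cKO replicate 1 (0.0126), P0.5 control replicate 1 (0.0131) or Kansl1 cKO replicate 1 (0.0132). For Adamts9 it was -2.92 (SE 0.425, adjusted p = 0.00523, edgeR), and it was not called without E16.5 control replicate 1 (adjusted p = 0.0103) or 2 (0.0193), MOF cKO replicate 1 (0.0127), P0.5 control replicate 1 (0.0224) or Kansl1 cKO replicate 1 (0.0126). For Adamts14 it was -1.46 (SE 0.239, adjusted p = 0.00783, edgeR) and it was kept only without P0.5 control replicate 2, with adjusted p between 0.0117 and 0.0405 when another library was left out.

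For Mmp3 the difference was 9.74 (SE 1.74, adjusted p = 0.00934, edgeR), and it was kept only without P0.5 control replicate 2 (adjusted p = 0.00428). Without P0.5 control replicate 1 it was 6.66 (adjusted p = 0.233, edgeR). That library held 12 Mmp3 counts, against 1 to 5 in the other P0.5 libraries, and its muscle marker sum was 190.0 CPM; the part of these cells in the value was not tested.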

How the results depend on the processing

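With 2 libraries per group the precision is low, and leaving out a library leaves a lone sample that is assumed to vary like the other group. In the MOF comparison, 11 of the 15 called members were called under each of 12 alternatives (4 of them leaving out a library), and Mmp10, Adamts4, Adamtsl5 and Mmp1b were not. Mmp1b was also not called in a fit over all 8 libraries (adjusted p = 0.0113, edgeR) and was not tested when 1 CPM in 2 libraries was required; Adamts4 had an adjusted p of 0.0233 in the fit over all 8 libraries. The uncalled log2 fold change of Mmp14 turned to 0.013 with RLE factors and with DESeq2, was -0.31 with library size alone, and when a library was left out ranged from -0.26 (without MOF cKO replicate 2) to 0.25 (without E16.5 control replicate 2), being 0.19 without MOF cKO replicate 1. In the Kansl1 comparison, keeping every gene with at least 1 count called 2 members up (Adamts9 and Timp3) and 1 down (Adamts15), and leaving out a library gave 0 to 2 up and 0 to 1 down. Leaving out a library also turned uncalled log2 fold changes, from -0.37 to 0.17 for Adamts10 (0.0077 without Kansl1 cKO replicate 2), from -0.10 to 0.48 for Adamts18 and from -0.50 to 0.83 for Adamtsl1. For the difference of the comparisons, the Kansl1 change was higher in 5 members and the MOF change in 7 both with every gene of at least 1 count and at an adjusted p of 0.05. DESeq2 gave 5 with the Kansl1 change higher, and leaving out a library gave 1 to 3 with the Kansl1 and 2 to 3 with the MOF change higher. The study describes littermate pairs, but nothing used here says that replicate numbers mark them. With the replicate number as a block, 12 members were called up and 6 down in the MOF comparison, 0 in the Kansl1 comparison, and 0 (Kansl1 higher) and 0 (MOF higher) for the difference, and the crossed pairing of the P0.5 libraries, chosen after seeing the data, called 0. The cause was not tested for any of these shifts.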
